A study of Mus musculus with 2 samples.

Results

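The genes described here encode semaphorins, plexins, neuropilins, ephrins, Eph receptors, slits, roundabouts, netrins and netrin receptors, the main families of guidance ligands and their receptors. They were taken by gene symbol, from families chosen with earlier results of these data known. In the value table, 57 of the 13869 genes with a named probe set had such a symbol. Of these, 56 are protein-coding and 1, Plxna4os1, is an antisense transcript of the plexin gene Plxna4. Expression was measured in luminal cells of the mammary epithelium from adult virgin Tbx3+/Venus females on an FVB background, aged 5 months, in which the fluorescent protein Venus replaces 1 allele of the transcription factor gene Tbx3, so that the cells of both groups carry a single working Tbx3 allele. Cells of 3 mice were pooled, CD45+ and stromal cells were gated out, and 200000 luminal cells with high Venus signal (Venus High) and 200000 with low or no Venus signal (Venus Low) were sorted. Each population was run on 1 Affymetrix GeneChip mouse genome array, so there are no replicates, no p-values are given, and the number of arrays limits the precision.

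Guidance molecules were first described in growing axons, and the same families act between neighbouring epithelial cells. Semaphorins signal through plexins, with neuropilins as co-receptors for most of the secreted class 3 semaphorins. Ephrins are bound to the membrane and signal to Eph receptor tyrosine kinases on adjacent cells, slits bind roundabout receptors, and netrins bind Dcc, neogenin and Unc5 receptors. In the mammary gland, members of these families are known for roles in the adhesion of epithelial layers and in duct growth and branching.

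Signals are on the log2 scale and were floored at 10, a log2 value of 3.32, which leaves only a lower bound for a gene whose Venus Low value sits there and no difference at all where both values do. The table holds 0 probe sets that were lower in Venus High cells. The direction of every difference below is therefore set by the table and is no finding, and guidance genes with the opposite direction were not analysed here. Markers of hormone-sensing luminal cells were high in Venus High cells. The list of 8 hormone-sensing genes has 6 in the table, and all 6 passed a 4-fold difference at a signal of 100. The share over all genes that reached 100 was 8.58%. Tbx3 was among the 6, with log2 signals of 8.72 and 3.62. The cells were sorted on its reporter, so its difference was set by the sort. Of 8 alveolar progenitor genes listed, 0 are in the table. Of 9 basal, 7 leukocyte and 6 nerve and Schwann cell markers listed, 6, 4 and 4 are in the table. These were at the floor on both arrays, with summed signals of 60, 40 and 40 in each population, among them Krt14, Trp63 and Ptprc. Of 6 stromal markers, the 5 in the table summed to signals of 110 in Venus High cells against 72.5 in Venus Low cells, with Col3a1 and Lum at the floor. Of 7 endothelial markers, the 4 in the table summed to 187 and 49.8. Here Vwf had log2 signals of 7.26 and 4.31 while Cdh5 and Tek were at the floor. Markers lower in Venus High cells would be missing from the table, so these values do not show that either population was free of such cells. The part of such cells in the results below was not tested. In sorted bulk samples, fewer cells with a transcript and less of it per cell cannot be told apart.

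Most of the guidance genes in this table gave no signal on the probe sets it holds. Of 73 protein-coding genes of these families in RefSeq, 17 are not analysed here, so the shares below do not describe the whole families in either population. On the probe sets used here, 39 of the 57 genes (68.4%) did not rise above the floor in either population, against 48.2% of all genes, and 5 genes (8.77%) reached a signal of 100 on at least 1 array, against 27.7% of all genes. These 5 were the semaphorin genes Sema4a, Sema4c and Sema4d, the plexin gene Plxnb2 and the ephrin gene Efna1. The threshold for a higher gene was a signal of 100 in Venus High cells together with a log2 difference of 2, which is 4-fold. Sema4c was the 1 guidance gene that passed it, which is 1.75% of the 57, beside 2.38% of all 13869 genes. Among the genes that reached a signal of 100 the background share was 8.58% at 4-fold and 21.6% at 2-fold, and Sema4c was also the 1 of the 5 at 2-fold. The 5 genes had a median log2 difference of 0.73, with a range from 0.12 to 2.63, beside 0.46 over the 3847 genes of the table that reached 100. Without any signal minimum, 8 of the 57 genes (14.0%) differed by at least 2-fold, beside 9.93% of all genes.

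**Figure D1:**
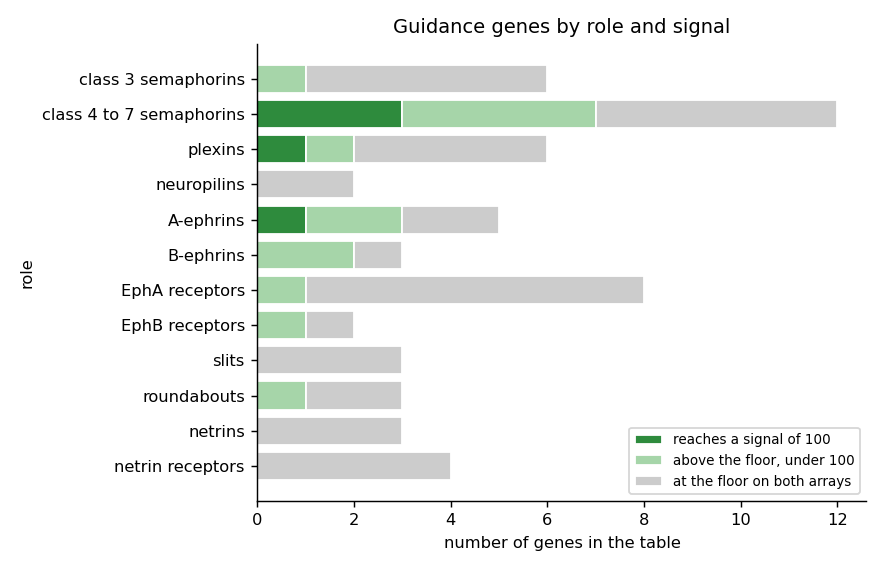
Number of guidance genes in the table (horizontal axis) by role, divided into genes that reached a signal of 100 on at least 1 array (dark green), genes above the floor but under 100 (light green) and genes at the floor on both arrays (grey). Genes that reached 100 are found among the class 4 to 7 semaphorins (3), the plexins (1) and the A-ephrins (1). Every slit, netrin, neuropilin and netrin receptor gene among the 57 guidance genes was at the floor.

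Among the semaphorins, Sema4c had the widest difference of the genes that reached 100. Sema4c encodes a membrane-bound class 4 semaphorin that binds plexin-B2. Its log2 signal was 9.10 in Venus High cells against 6.47 in Venus Low cells on its 1 probe set. On the linear scale the signals were 549 and 88.6, which is 6.19-fold. The Venus Low signal lies well above the floor, and raising the floor to 100 changed the log2 difference from 2.63 to 2.46. As the table holds no lower probe sets, centring each array on its median can only lower the differences. Here it took 0.66 from every gene above the floor, which turns smaller differences negative. This shift is no measure of how the arrays were scaled. The log2 difference of Sema4c was then 1.97, or 1.94 after quantile normalization, just under 4-fold, while the share of genes that reached 100 at 4-fold fell to 5.74% and 5.59%. Centring put the other guidance genes that reached 100 at 0.20 (Plxnb2), 0.08 (Sema4a), -0.30 (Sema4d) and -0.54 (Efna1).

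The other class 4 semaphorin genes that reached 100 differed less. Sema4a, a ligand of plexins of the B and D classes, had log2 signals of 7.82 in Venus High cells against 7.09 in Venus Low cells, a 1.66-fold difference, and its other probe set had 7.05 and 6.15. Sema4d, the classical ligand of plexin-B1, had 7.51 and 7.15, a 1.29-fold difference, and on its 2 other probe sets both values lay at the floor. The pooled SD between probe sets of a gene was 0.31 on the log2 scale, from 1062 genes with several probe sets past a signal of 100, so the difference of 0.36 for Sema4d is close to the disagreement between probe sets and that of 0.73 for Sema4a exceeds it. This SD covers probe sets within these 2 arrays, not animals, and it was taken from a table that holds 1 direction only. It does not cover the scaling of the arrays. After median centring the differences were 0.08 for Sema4a and -0.30 for Sema4d, and after quantile normalization 0.06 and -0.33. Sema4f, another class 4 member, had a log2 signal of 4.86 in Venus High cells and was at the floor in Venus Low cells, a difference of at least 2.91-fold. Its linear signal was 29.1 on its 1 probe set, an _x_at probe set, so that no difference was left with the floor at 32. For Sema4b the probe set in the table was at the floor on both arrays, and Sema4g is not analysed here.

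Sema3f was the 1 secreted class 3 semaphorin above the floor. Class 3 semaphorins are soluble, and Sema3F acts mainly through neuropilin-2. The highest of its 3 probe sets had log2 signals of 6.64 in Venus High cells against 5.23 in Venus Low cells, a 2.64-fold difference, with a linear signal of 99.4 just below the minimum of 100. The other probe sets had 5.11 and 4.49 in Venus High cells, with both Venus Low values at the floor. All 3 thus differed by 1.17 to 1.78 on the log2 scale, and the pair with a floored value give bounds. The highest is an _x_at probe set. Without _x_at, _s_at and _a_at probe sets, the Venus High value of Sema3f was 4.49 and its difference 1.17. The 5 other class 3 genes in the table, Sema3a, Sema3b, Sema3c, Sema3d and Sema3e, were at the floor in both populations on all their probe sets. Sema7a, a membrane-anchored semaphorin that binds integrins and plexin-C1, had 5.32 in Venus High cells against 4.29 in Venus Low cells on 1 probe set, with the other at the floor, and its log2 difference went from 1.03 to 0.32 with the floor at 32. Sema6c and Sema6d stayed near the floor, with 3.46 and 3.51 in Venus High cells, and Sema5a, Sema5b, Sema6a and Sema6b were at it.

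**Figure D2:**
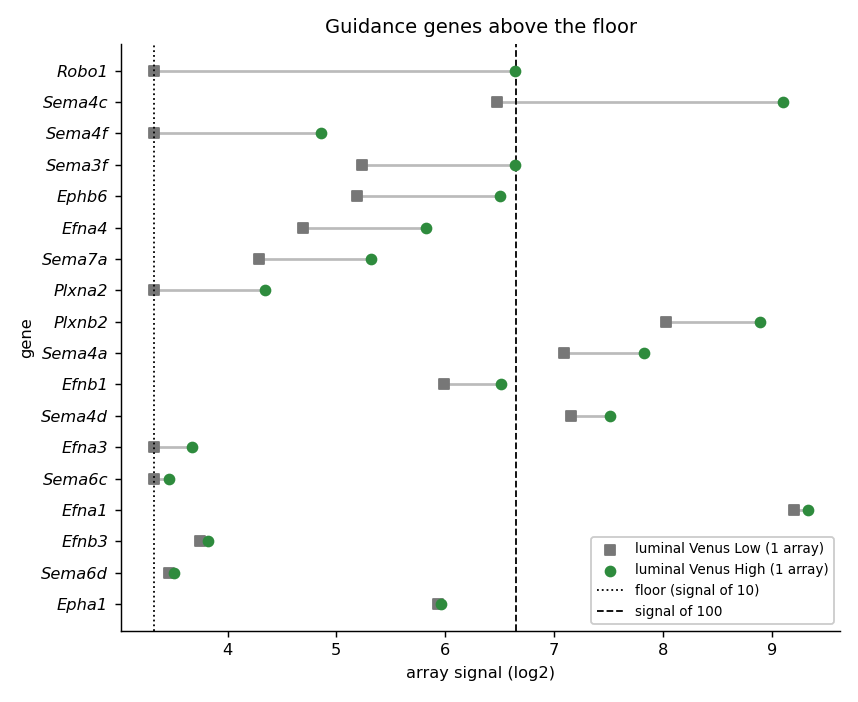
Array signal (log2, horizontal axis) of the 18 guidance genes above the floor, with green circles for the luminal Venus High array and grey squares for the luminal Venus Low array, ordered by the difference. Dotted and dashed lines mark signals of 10 and 100. Robo1 and Sema4c have the widest gaps, Robo1 from the floor to just under 100 and Sema4c between values of 6.47 and 9.10, and the squares of Robo1, Sema4f, Plxna2, Efna3 and Sema6c lie at the floor.

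Of the plexin and neuropilin genes in the table, Plxnb2 alone reached 100. Plexin-B2 is a receptor of class 4 semaphorins, Sema4C and Sema4D among them. Plxnb2 had log2 signals of 8.89 in Venus High cells against 8.02 in Venus Low cells, or 473 and 260 on the linear scale, a 1.82-fold difference and a log2 difference of 0.86 on 1 probe set. The signal of the receptor gene was thus above 100 in both populations. Plxna2, a plexin that pairs with class 6 semaphorins and with neuropilins, had 4.35 and 4.10 in Venus High cells on a pair of probe sets and was at the floor in Venus Low cells, and on its 2 other probe sets both values lay at the floor. Its highest linear signal was 20.4, so that no difference was left with the floor at 32. The probe sets in the table for Plxna1, Plxna4, Plxna4os1 and Plxnc1 were at the floor, 6 of them for Plxnc1. Nrp1 and Nrp2, the neuropilin genes, were each represented by 1 probe set at the floor. Plxna3, Plxnb1, Plxnb3 and Plxnd1 are not analysed here.

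Efna1 was the 1 ephrin gene that reached a signal of 100. Ephrin-A1 is a membrane-anchored ligand of EphA receptors, with EphA2 as its best known partner in epithelia. Efna1 had log2 signals of 9.33 in Venus High cells against 9.20 in Venus Low cells, and 8.07 and 8.04 on its other probe set. Its differences of 0.12 and 0.02 are smaller than the SD of 0.31 between probe sets, and its signal was above 100 in both populations. Efna4 had 5.82 and 4.69, a 2.19-fold difference below a signal of 100, and Efna3 had 3.68 in Venus High cells. Efnb1, a ligand of EphB receptors, had 6.51 and 5.98 on the highest of 3 probe sets, and its 3 differences ranged from 0.46 to 0.83. Efnb3 had 3.82 and 3.75. Efna2, Efna5 and Efnb2 were at the floor on both arrays.

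The Eph receptors in the table gave little signal. Ephb6, a family member whose kinase domain is inactive, had log2 signals of 6.50 in Venus High cells against 5.19 in Venus Low cells, which is 90.3 and 36.5 on the linear scale and a 2.47-fold difference. Epha1 had 5.96 and 5.94 on 1 probe set and was at the floor on the other. The 7 other EphA genes in the table, Epha3 to Epha8 and Epha10, and Ephb1 were at the floor on both arrays. Epha2, Ephb2, Ephb3 and Ephb4 are not analysed here, so the table gives no EphA or EphB receptor with a signal of 100 to set beside Efna1.

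Robo1 had the widest log2 difference of the 57 genes but a low signal. Roundabout 1 is the receptor of slits, known in the mammary gland for restraining the growth of basal cells and for adhesion between its cell layers. Robo1 had a log2 signal of 6.64 in Venus High cells, a linear signal of 99.8, and was at the floor in Venus Low cells. The difference is at least 9.98-fold. The signal missed the minimum of 100 by a narrow margin, and with a minimum of 90 Robo1 joined Sema4c in the count of 4-fold genes. The size of the difference rests on the floor. It was 1.64 on the log2 scale when signals were floored at 32 and 0.00 when they were floored at 100. The other Robo1 probe set gave no signal in either population. The median of its probe sets gave a difference of 1.66. Robo2 and Robo3 were at the floor, as were the ligands Slit1, Slit2 and Slit3, and Robo4 is not analysed here. Ntn3, Ntn5 and Ntng2, the netrin genes in the table, and the receptor genes Dcc, Unc5a, Unc5c and Unc5d were at the floor as well. Ntn1, Ntn4, Ntng1, Neo1, Unc5b and Unc5cl are not analysed here.

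Across the 57 genes there were 103 probe sets, of which 78 gave no signal above the floor. Of the genes, 30 had 1 probe set in the table and 27 had several. In 7 of the 18 genes above the floor, at least 1 further probe set was at the floor on both arrays. In 5 genes, Sema3f, Sema4a, Plxna2, Efnb1 and Efna1, more than 1 probe set was above it. A gene at the floor here may have a probe set that is not in the table, and a gene such as Robo1 or Sema4d rests on 1 probe set while others of the same gene gave no signal.

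**Figure D3:**
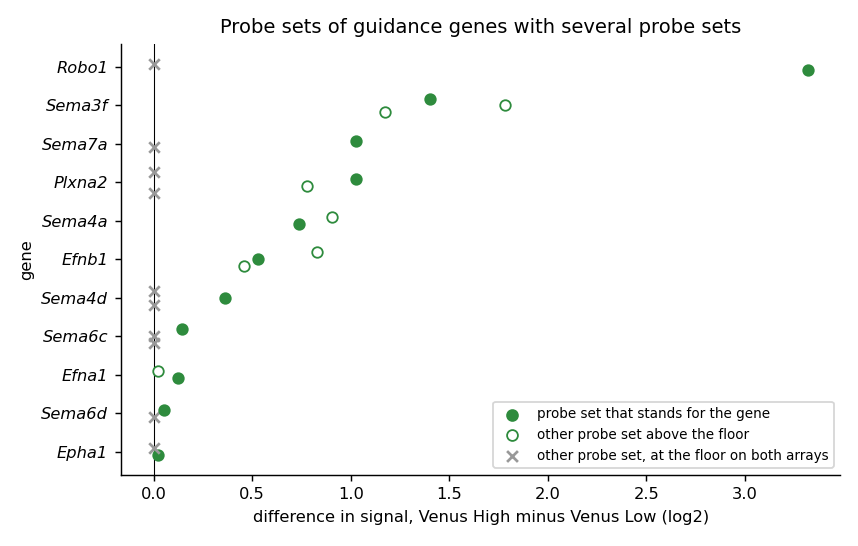
Difference in log2 signal between Venus High and Venus Low cells (horizontal axis) for each probe set of the 11 guidance genes above the floor that had several probe sets in the table. Filled circles are the probe sets that stand for the gene, open circles are other probe sets above the floor, and crosses are probe sets at the floor on both arrays. The 3 probe sets of Sema3f spread from 1.17 to 1.78, while Robo1 has 1 probe set at 3.32 and another at the floor.

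Sema4c and Robo1 were the genes with a difference of at least 4-fold, and the sequence before their transcription starts is shown for that reason. The windows are from RefSeq on GRCm38.p6 and hold the 250 bases before a start, 5′ to 3′ on the strand of the gene, with CG dinucleotides in capitals. Sema4c has a pair of annotated starts on the minus strand, with windows at chr1:36558382-36558631 and chr1:36557558-36557807, and Robo1 has 1 window on the plus strand at chr16:72662899-72663148.
Sema4c first window: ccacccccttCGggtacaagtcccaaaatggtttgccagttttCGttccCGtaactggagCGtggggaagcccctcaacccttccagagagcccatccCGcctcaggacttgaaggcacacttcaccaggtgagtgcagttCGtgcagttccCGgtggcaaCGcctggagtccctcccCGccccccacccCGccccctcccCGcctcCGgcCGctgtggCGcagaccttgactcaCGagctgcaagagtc
Sema4c second window: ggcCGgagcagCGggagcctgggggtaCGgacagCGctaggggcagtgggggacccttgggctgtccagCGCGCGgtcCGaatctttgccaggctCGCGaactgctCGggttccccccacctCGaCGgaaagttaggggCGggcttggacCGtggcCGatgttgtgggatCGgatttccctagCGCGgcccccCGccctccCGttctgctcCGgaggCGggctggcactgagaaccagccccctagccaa
Robo1 window: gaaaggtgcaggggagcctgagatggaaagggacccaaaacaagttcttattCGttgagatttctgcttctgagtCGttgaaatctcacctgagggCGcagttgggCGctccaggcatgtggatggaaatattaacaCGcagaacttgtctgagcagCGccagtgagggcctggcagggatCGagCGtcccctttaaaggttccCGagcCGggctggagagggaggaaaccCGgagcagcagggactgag
The Sema4c windows hold 15 and 23 CG dinucleotides and the Robo1 window 11, beside a median of 6 over all 32851 promoter windows, of which the middle part, from the lower to the upper quartile, spans 2 to 16. For the 63 windows of the 47 guidance genes matched by symbol, the median was 15, and for the 27 windows of those above the floor it was 13. Windows of 300 bases, with the 50 bases after the start included, were searched on both strands for the T-box site AGGTGTGA, the palindromic estrogen response element GGTCANNNTGACC and the FOX site TGTTTAC, none of which contains another. Of the 63 windows, 1 held the T-box site, beside 1.28% of all windows, and 0 held either of the others, beside 0.07% and 3.65%. The match was in 1 of 4 windows of Sema4a, where it begins at base 40 from the start. None of these letters are in the windows of Sema4c or Robo1, which says nothing about binding of the factors elsewhere.

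Partners and intracellular effectors of these receptors were read from a separate list of 69 genes, of which 48 were in the table, 21 stayed at the floor in both populations and 18 reached a signal of 100. Of the 18, 9 (50%) differed by 2-fold or more and 4 (22.2%) by 4-fold or more, beside the background shares of 21.6% and 8.58% of genes that reached 100. Their median log2 difference was 1.04. The list was made by role, but with earlier results of these data known, and an excess over the background was not tested. As the table holds 1 direction only, members that were lower in Venus High cells are missing from these shares.

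Among the 18 genes that reached a signal of 100, the widest differences were in genes listed under slit and Eph signaling. Gpc1 encodes glypican-1, a heparan sulfate proteoglycan that binds slits, and had log2 signals of 8.41 in Venus High cells against 3.48 in Venus Low cells, a 30.6-fold difference. Cxcl12, the chemokine whose attraction is opposed by slit signaling in leukocytes, had 8.23 and 4.28, a 15.4-fold difference. Vav3, a guanine nucleotide exchange factor that acts below Eph receptors, had 7.92 and 4.43, an 11.2-fold difference. In all 3 the Venus Low signal was low, and raising the floor to 100 gave log2 differences of 1.77, 1.59 and 1.27, below 4-fold. Adam10, the protease that cleaves ephrins from the membrane, had signals far above the floor in both populations, 11.56 and 9.44, a 4.36-fold difference that was the same with the floor at 100. Less the shift of 0.66, which the missing lower probe sets force to be a decrease, the log2 difference of Adam10 was 1.47, below 4-fold, and those of Gpc1, Cxcl12 and Vav3 were 4.28, 3.29 and 2.82.

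Genes with a difference between 2-fold and 4-fold included 2 further Eph effectors. Inppl1, which encodes the lipid phosphatase SHIP2 bound by EphA2, had log2 signals of 10.08 and 8.18, and Nck2, an adaptor recruited by activated Eph receptors and ephrin-B ligands, had 11.02 and 9.18. The related adaptor Nck1 had 7.25 and 7.17, a difference of 0.08. Vegfa, a ligand of neuropilins, had 8.35 and 6.48, a 3.66-fold difference, while both neuropilin genes were at the floor on the probe sets in the table. Of the VEGF receptor genes, Flt1 had 4.13 and Kdr 3.78 in Venus High cells with the Venus Low values at the floor, and Flt4 was at the floor on both arrays. Ablim1, an actin-binding protein linked to netrin responses, had 8.26 and 6.90. Erbb2, a receptor tyrosine kinase that associates with B-class plexins, had 7.53 and 6.33, a 2.30-fold difference, or a log2 difference of 0.89 when floored at 100. The other 8 genes that reached 100 differed by less than 2-fold, Src, Abl2, Rgs3, Rras, Gipc1, Enah, Vasp and Maged1, with Rgs3 at 0.87 as the widest and Enah at 0.08 as the narrowest of these. Cytosolic semaphorin mediators of the collapsin response family gave little signal, with Dpysl2, Dpysl3, Dpysl4 and Crmp1 at the floor and Dpysl5 at 4.39 in Venus High cells. Met, which also associates with B-class plexins, is not analysed here. Dscam, listed with the netrin receptor partners, had 5.97 in Venus High cells, below a signal of 100, and was at the floor in Venus Low cells. Its difference of at least 6.27-fold rests on the floor, and none was left with the floor at 100.

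**Figure D4:**
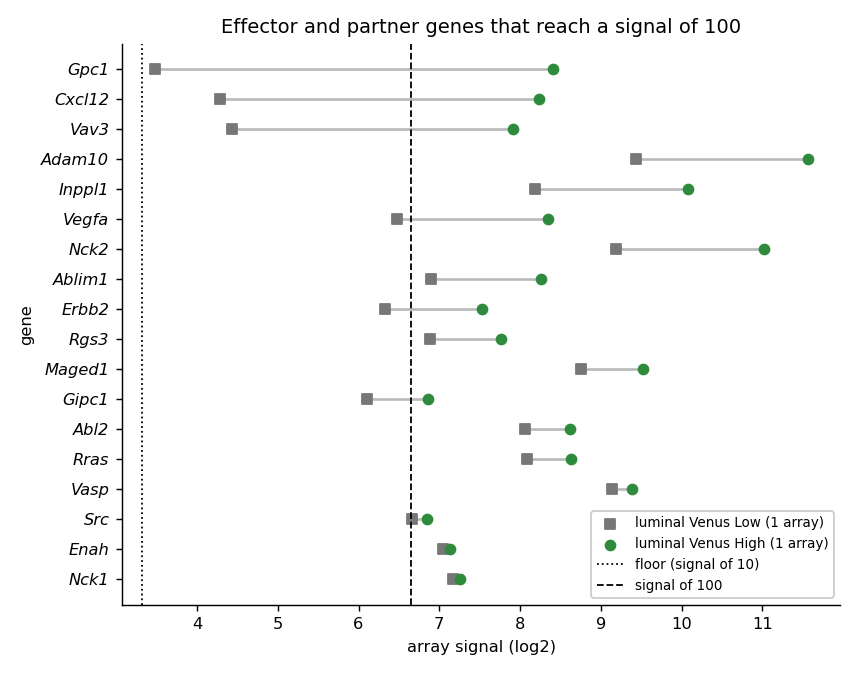
Array signal (log2, horizontal axis) of the 18 effector and partner genes that reached a signal of 100, with green circles for the luminal Venus High array and grey squares for the luminal Venus Low array, ordered by the difference. Dotted and dashed lines mark signals of 10 and 100. The grey squares of Gpc1, Cxcl12 and Vav3 lie below 100 toward the floor, whereas both values of Adam10, Inppl1 and Nck2 lie above 100.

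**Figure D5:**
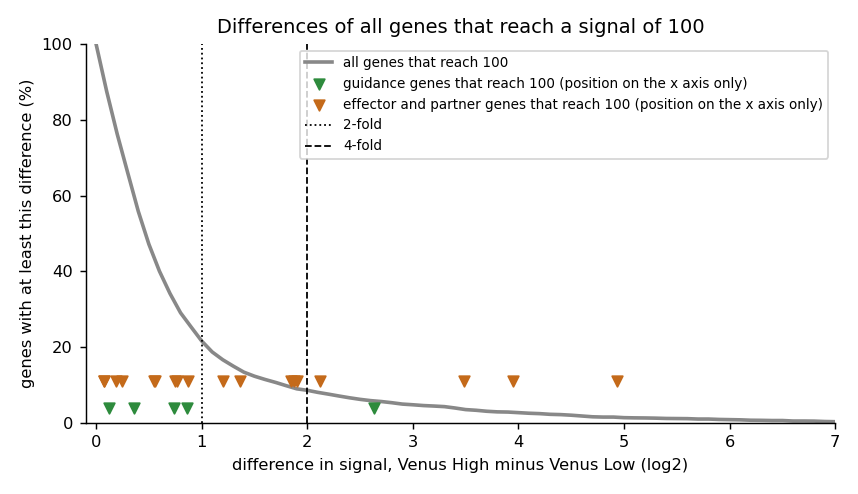
Share of the 3847 genes that reached a signal of 100 (vertical axis, percent) with at least the log2 difference on the horizontal axis. Triangles mark on the horizontal axis the 5 guidance genes (green) and the 18 effector and partner genes (orange) that reached 100. At 4-fold the curve stands at 8.58%, and Sema4c, Adam10, Vav3, Cxcl12 and Gpc1 lie beyond it.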

How the data were processed

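The authors hybridized biotinylated cRNA, made from 250 ng of total RNA (RNA integrity number above 9.4), log2-transformed the signals, then normalized and centred each sample (BRB Array). MAS5 is named in the submitters' notes. The deposited values are thus log2 signals. No source used here gives the scaling reference, and whether both arrays share a common scale is unknown. The table holds 29338 probe sets, 12968 higher in Venus High cells, 16370 at the floor on both arrays and 0 lower in Venus High cells, so genes of the other direction could not be counted. Columns of other samples numbered 0.

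Gene names came from the platform annotation, which pairs 22223 of these probe sets with 1 symbol, 602 with several and 6513 with none, and only the first kind was used. The probe set with the largest average of both log2 values stood for a gene. With 1 array per population no test was run. The spread given is the pooled SD between probe sets. Under median centring and quantile normalization, the signal minimum was read from the deposited values. The rule for named genes took every guidance gene with a signal of at least 32, those at the floor, and up to 12 effectors with the largest differences among those that reached 100. Other genes were named after their values were seen. The gene families, lists and thresholds were chosen with earlier results of these data known. In the effector list, Grb4 was dropped as another name of Nck2. Promoter windows were matched by symbol. Alternatives were median centring, quantile normalization, floors at 32 and 100, the median of probe sets, leaving out _x_at, _s_at and _a_at probe sets, other signal minimums and an 8-fold threshold. Computation used Python 3.11.15, numpy 2.4.6, pandas 2.3.3 and matplotlib 3.10.9, and was tested on simulated data.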

Additional observations from a re-analysis of the deposited data

How the results depend on the processing

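The count of 1 guidance gene at least 4-fold higher, Sema4c, was 0 at an 8-fold threshold, which 4.76% of all genes that reached 100 passed. It was also 0 under median centring or quantile normalization. As the table holds no lower probe sets, centring can only lower the differences. The share of all genes that reached 100 at 4-fold fell from 8.58% to 5.74% under centring and 5.59% under quantile normalization. With Robo1, the count of guidance genes at 4-fold was 2 of 11 at a signal minimum of 50 and 2 of 57 with none. It was also 2 of 9 at minimums of 90 and 80, which were chosen after seeing the data. The shares of all genes that reached those minimums were 8.67% at 50, 3.25% with none, 8.56% at 90 and 8.49% at 80. The count of 1 of 5 guidance genes at 2-fold was 4 of 9 at minimums of 90 and 80, 5 of 11 at 50 and 8 of 57 with none, beside 21.6%, 21.6%, 21.9% and 9.93% of all genes that reached those minimums. Under median centring and quantile normalization the 2-fold count was 1 of 5, beside 10.9% and 10.6% of all genes that reached 100. The other settings kept both counts at 1, out of 4 guidance genes with the median of probe sets and at a minimum of 200. Their shares of all genes ran from 4.42% to 9.36% at 4-fold and from 15.1% to 23.1% at 2-fold. The median log2 difference of 0.73 over the guidance genes that reached 100 was 0.0758 under median centring and 0.0551 under quantile normalization. It was 0.00 with no minimum, when most members are at the floor. Over all genes that reached 100, the medians were -0.20 and -0.22 under these scalings and 0.46 as deposited. With no minimum, the median over all genes was 0.02. The median over the guidance genes moved by less than the SD between probe sets under the other settings. The count of 9 effector and partner genes at 2-fold, beside 21.6% of all genes that reached 100, ranged from 7 to 11 over all settings. It was 7 under median centring and under quantile normalization, beside 10.9% and 10.6% of all genes that reached 100. With no minimum it was 11 of 48, beside 9.93% of all genes. No paired analysis was possible because each population has 1 array. Signals near the floor limit the low genes, and leaving out a replicate was not possible.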
